A study of Homo sapiens with 12 samples.

Results

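Aminoacyl-tRNA synthetases were followed after knock-down of the lncRNA RP11-19E11.1 in 3 basal-like breast cancer cell lines. The group was set by the function of the encoded enzymes, and it holds 35 genes of the 63677 in each count table. Of these, 19 encode cytosolic enzymes or enzyme subunits, including KARS1 and GARS1, whose products serve both compartments, and 16 encode mitochondrial enzymes. All 35 passed the filter on low counts and are among the 21325 genes tested. Cells of MDA-MB-468, SUM149PT and HCC38 received either LNA1 and LNA2 against the lncRNA or a non-targeting LNA (LNA NS), both at 50 nM, with a change of medium after 6 h and collection at 24 h. The LNAs were GapmeRs, short antisense oligonucleotides with locked nucleotides that direct the cutting of a matching RNA. Polyadenylated RNA of each line and treatment was sequenced as 2 libraries, which makes 12. Both LNAs were given together and 1 time point was taken, so the effects of the single LNAs cannot be told apart.

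Each synthetase attaches 1 kind of amino acid to its matching tRNAs, the step at which the genetic code is read into protein. Cytosolic enzymes charge the tRNAs used for most cell proteins, and the mitochondrial enzymes, encoded in the nucleus and imported, charge the tRNAs that translate the few proteins made inside mitochondria, all of them parts of the oxidative phosphorylation system. Several cytosolic synthetase genes are known targets of ATF4, the transcription factor of the amino acid response, which binds C/EBP-ATF response elements.

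Gene counts per library were between 32187835 and 56191152. The targeted lncRNA was lower after knock-down in every line, but MDA-MB-468, where the synthetase classes moved farthest apart, had little of it with LNA NS. In that line it was at 0.023 and 0.0235 CPM after knock-down (1 count per library), against 0.796 and 0.611 CPM with LNA NS (29 and 23 counts), a ratio of 0.0332 with a 95% exact interval of 0.00391 to 0.126 that covers counting error only. It was at 0.576 and 0.416 CPM after knock-down, against 10.7 and 11.2 CPM, in SUM149PT, and at 1.48 and 2.05 CPM after knock-down, against 14.6 and 15.1 CPM, in HCC38 (log2 fold change -4.41 and -3.09). Epithelial markers (EPCAM, CDH1, KRT8, KRT18, KRT19) were at 103 CPM or more in every library, PTPRC, CD3E and HBB of blood cells at or below 0.0803 CPM and COL1A1 of fibroblasts at 16.7 to 119 CPM. Of the 8 basal markers, CDH3, EGFR and KRT5 were at 46.3 CPM or more in every HCC38 library and KRT6B at 6.74 to 14.7 CPM, while KRT14, KRT17, KRT6A and TP63 were at or below 2.69 CPM there. TP63 was lower still in MDA-MB-468 (0.368 to 0.988 CPM) and SUM149PT (0.186 to 0.521 CPM), where the other basal markers were at 16.2 CPM or more. Of the luminal markers, ERBB2 and GATA3 were at 39.8 CPM or more in every library. FOXA1 was at 1.55 to 61.5 CPM, ESR1 at 0.0874 to 7.68 CPM and PGR at or below 0.242 CPM. Reads that fell in no gene made up 8.34% and 13% of the counts in the HCC38 knock-down libraries, against 5.28% and 6.05% with LNA NS, while the groups overlapped in the other lines. The part of this difference in the HCC38 results was not tested. Levels are given in CPM (the count as a share of the library total) after TMM normalization. In RNA from a whole culture, fewer cells with a transcript and less of it per cell cannot be told apart.

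In the LNA NS libraries the cytosolic synthetases were the more abundant class. Scaled per kb of transcript, so that genes can be compared, the median level was 84.0 CPM per kb for the cytosolic and 12.1 CPM per kb for the mitochondrial members. KARS1, the lysyl enzyme, was highest at 226 CPM per kb and SARS2, the mitochondrial seryl enzyme, lowest at 2.1 CPM per kb. Another annotated gene overlaps SARS2 on the same strand, and reads that match both may be counted for neither. The part of this overlap in the low SARS2 count was not tested. IARS2, the mitochondrial isoleucyl enzyme, stood apart from its class at 97.3 CPM per kb, and FARSB, the beta subunit of the phenylalanyl enzyme, was the lowest of the cytosolic members at 19.8 CPM per kb. The LNA NS levels of 32 of the 35 members differed between the 3 lines (edgeR adjusted p under 0.1), beside 85.9% of all genes tested. WARS1, the tryptophanyl enzyme, had 93.1 CPM per kb in HCC38 and 36.5 CPM per kb in MDA-MB-468, and GARS1, the glycyl enzyme, had the opposite order, with 48.0 and 130 CPM per kb in those lines.

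After knock-down the 2 classes moved apart. A gene is called risen or fallen at a Benjamini-Hochberg adjusted p under 0.1 in edgeR's quasi-likelihood test over all genes. On average over the 3 lines, 11 of the 19 cytosolic members rose, 4 fell and 4 were not called, while 2 of the 16 mitochondrial members rose, 9 fell and 5 were not called. Of all genes tested, 28.4% rose and 26.5% fell. The median of the mean log2 fold changes was 0.19 for the cytosolic and -0.21 for the mitochondrial members, against 0.04 for all genes. Without KARS1 and GARS1, 9 cytosolic members rose and 4 fell, with a median of 0.17. The classes were not tested against each other as groups.

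The medians of the classes lay farthest apart in MDA-MB-468. There, 11 cytosolic members rose and 2 fell, and 1 mitochondrial member rose and 9 fell, beside 24.9% risen and 25.7% fallen of all genes. In SUM149PT, 9 cytosolic members rose and 2 fell, and 3 mitochondrial members rose and 7 fell, where 20% of all genes rose and 18.0% fell. In HCC38, 7 cytosolic members rose and 4 fell, and 2 mitochondrial members rose and 7 fell, where 15.5% of all genes rose and 18.4% fell. The median log2 fold change of the cytosolic members was 0.41, 0.22 and -0.06 for MDA-MB-468, SUM149PT and HCC38, and that of the mitochondrial members -0.27, -0.21 and -0.28 in the same order. Thus the cytosolic median in HCC38 was close to the median of all genes there, 0.01, and it was 0.06 under upper quartile normalization, which moved the median of all genes there by 0.126. The plot of fold changes by line shows these patterns for every member.

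**Figure D1:**
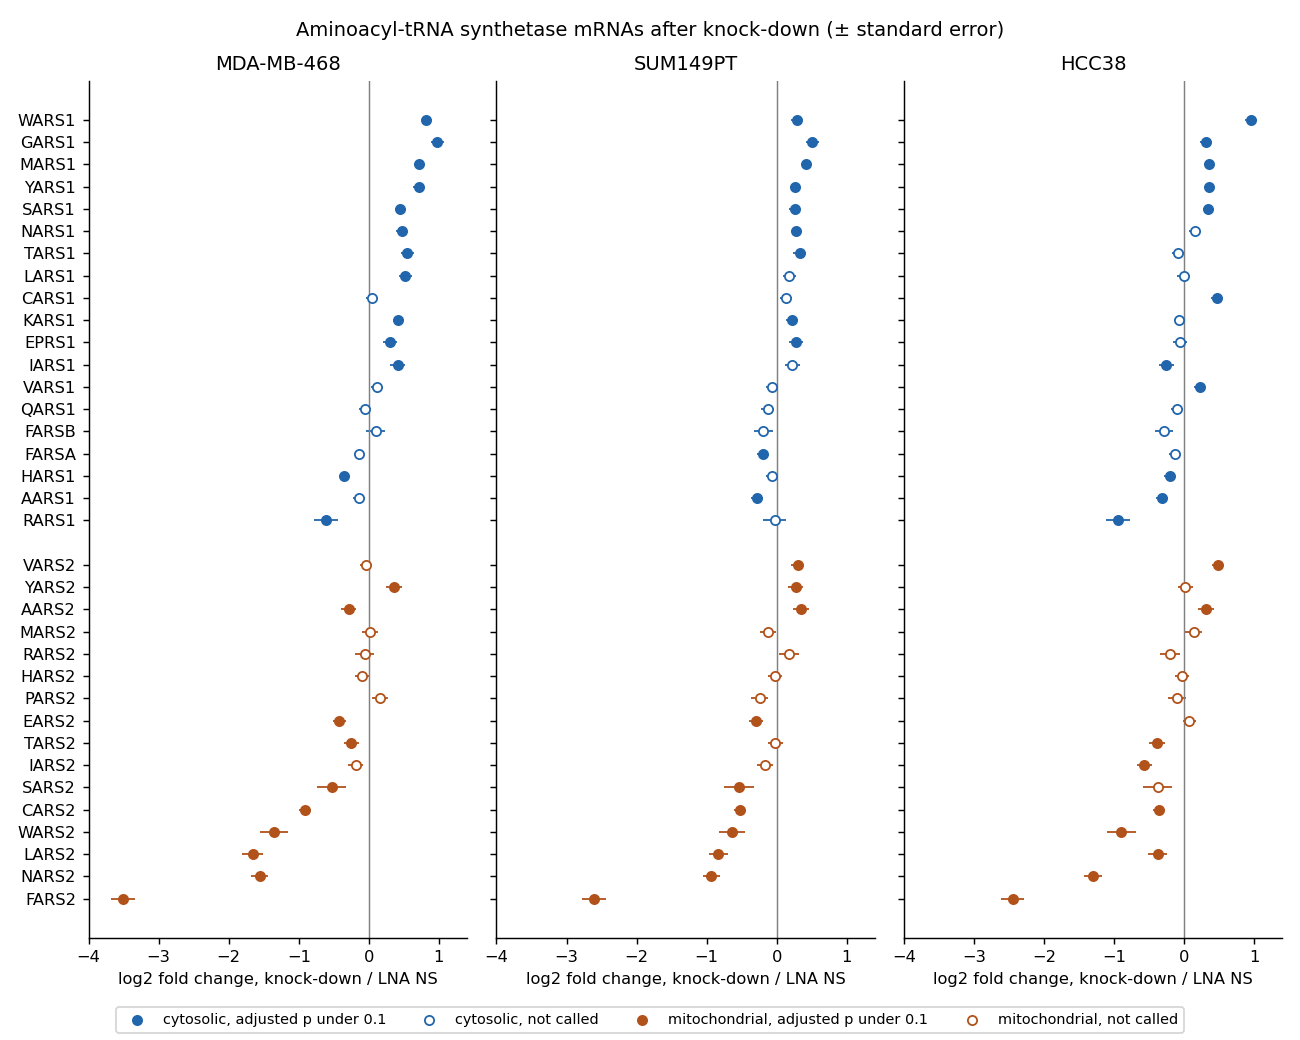
Log2 fold change of each synthetase mRNA (knock-down over LNA NS, horizontal axis, bars are the standard error from the edgeR fit) in MDA-MB-468, SUM149PT and HCC38, with cytosolic members in blue above mitochondrial members in brown, each ordered by the mean over the lines. Filled points have an adjusted p under 0.1: the cytosolic members that rose number 11, 9 and 7 from left to right, and FARS2 lies farthest to the left in each line.

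Summed over the class, cytosolic synthetase mRNAs took 5889 and 5973 CPM in the MDA-MB-468 knock-down libraries, against 4650 and 4434 CPM with LNA NS. Mitochondrial members summed to 802 and 751 CPM after knock-down in this line and to 983 and 988 CPM with LNA NS. In SUM149PT the cytosolic sums were 5800 and 5431 CPM after knock-down and 5114 and 5018 CPM with LNA NS, and the mitochondrial sums 1061 and 947 CPM after knock-down and 1115 and 1091 CPM with LNA NS. For HCC38 the cytosolic sums were 4837 and 4710 CPM after knock-down, against 4667 and 4436 CPM, and the mitochondrial sums 754 and 702 CPM, against 932 and 857 CPM. In no line did the sums of the knock-down and LNA NS libraries overlap, in either class, but some separations were narrow. In HCC38 the nearest cytosolic sums were 4710 CPM (knock-down replicate 2) and 4667 CPM (LNA NS replicate 1), and the separation was lost without WARS1. Without this gene, left out after the values were seen, the HCC38 sums were 4368 and 4231 CPM after knock-down and 4423 and 4188 CPM with LNA NS, which overlap, whereas the cytosolic sums in the other lines stayed apart. WARS1 was not the only such member in HCC38. In the nearest libraries SARS1 had 413 and 328 CPM, YARS1 330 and 260 CPM, VARS1 369 and 305 CPM and MARS1 281 and 220 CPM. Each of these differences exceeds the gap between the sums. The sums were not recomputed without each other member in turn, so whether the remaining separations rest on single members was not tested. In SUM149PT the nearest mitochondrial sums were 1061 CPM (knock-down) and 1091 CPM (LNA NS), and CARS2 alone had 94.6 and 133 CPM in those libraries. That is a larger difference than between the sums, so this separation does not hold without CARS2.

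Among the cytosolic enzymes, WARS1 had the largest mean rise. It was at 163 and 178 CPM after knock-down and 100 and 92.7 CPM with LNA NS in MDA-MB-468. In SUM149PT it was at 204 and 195 CPM after knock-down and 161 and 165 CPM with LNA NS, and in HCC38 at 469 and 479 CPM after knock-down, against 244 and 248 CPM. The groups did not overlap in any line. WARS1 thus rose by log2 fold changes of 0.82, 0.29 and 0.95 in MDA-MB-468, SUM149PT and HCC38, with a mean of 0.69 (standard error 0.0471, edgeR adjusted p = 7.5e-09). The size differed between the lines (edgeR adjusted p = 0.0019), and the call in SUM149PT was lost without knock-down replicate 1, at a log2 fold change of 0.25.

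GARS1, which makes glycyl-tRNA in both compartments from 1 gene, was at 605 and 638 CPM after knock-down and 334 and 298 CPM with LNA NS in MDA-MB-468. Its levels were 324 and 293 CPM after knock-down and 218 and 214 CPM with LNA NS in SUM149PT. They were 147 and 143 CPM after knock-down and 123 and 111 CPM with LNA NS in HCC38. Every knock-down library was above both LNA NS libraries of its line. The mean log2 fold change was 0.60 (standard error 0.0513, edgeR adjusted p = 8.9e-08), with 0.98, 0.51 and 0.31 in the 3 lines, which differed from each other (edgeR adjusted p = 0.00379). In HCC38 the call did not hold when LNA NS replicate 2 (0.24) or knock-down replicate 1 (0.27) was left out.

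MARS1, the methionyl enzyme, was at 541 and 539 CPM after knock-down, against 325 and 329 CPM with LNA NS, in MDA-MB-468. It reached 327 and 337 CPM after knock-down, against 252 and 245 CPM, in SUM149PT, and 286 and 281 CPM after knock-down, against 220 and 226 CPM, in HCC38. Replicates lay close together and the groups were separate in each line, with a mean log2 fold change, over lines, of 0.50 (standard error 0.0428, edgeR adjusted p = 1e-07). The stress gene DDIT3 lies on the opposite strand within the MARS1 locus, and the strand setting of the counting is not given, so reads of these genes cannot be told apart for certain. DDIT3 had log2 fold changes of 0.72, 0.04 (not called) and 1.03 in MDA-MB-468, SUM149PT and HCC38, and MARS1 had 0.72, 0.42 and 0.35. The part of DDIT3 reads in the MARS1 values was not tested.

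YARS1, the tyrosyl enzyme, was at 496 and 497 CPM in MDA-MB-468 knock-down libraries and 306 and 299 CPM with LNA NS. In SUM149PT it was at 339 and 331 CPM after knock-down and 278 and 280 CPM with LNA NS, and in HCC38 at 326 and 330 CPM after knock-down and 260 and 255 CPM with LNA NS. No group overlapped with its control, and the mean log2 fold change was 0.44 (standard error 0.0425, edgeR adjusted p = 3.4e-07). SARS1, the seryl enzyme, rose as well in all 3 lines, with log2 fold changes of 0.45, 0.26 and 0.34, although its call in SUM149PT was lost without LNA NS replicate 1. These 5 (WARS1, GARS1, MARS1, YARS1 and SARS1) were the cytosolic members that rose in every line, 26.3% of the class beside 6.6% of all genes tested, and no cytosolic member fell in every line.

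**Figure D2:**
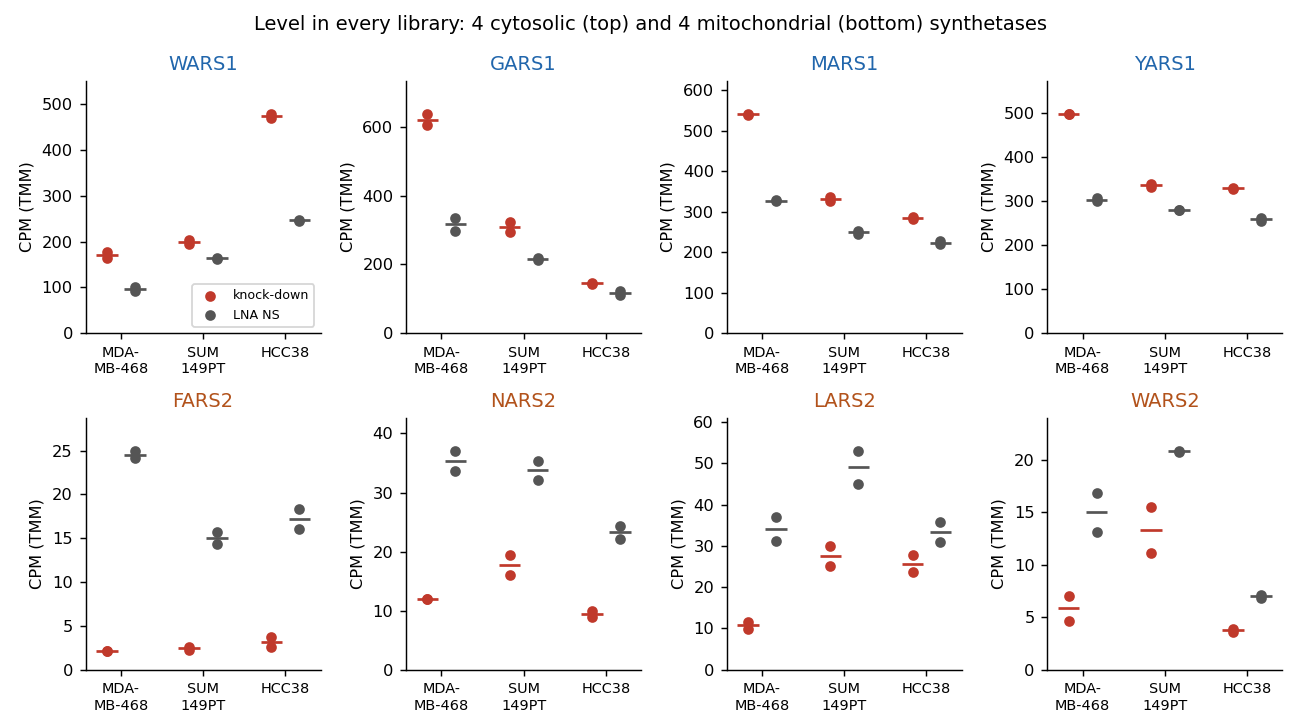
Level in each library (CPM, vertical axes from 0) of the 4 cytosolic members with the largest mean rise (top) and the 4 mitochondrial members with the largest mean fall (bottom), by cell line, knock-down in red to the left of LNA NS in grey; horizontal bars are means of 2 libraries. The points of the 2 treatments do not overlap within any line, and FARS2 in MDA-MB-468 is at 2.14 and 2.17 CPM after knock-down, against 25.0 and 24.1 CPM with LNA NS.

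The other 6 cytosolic members that rose on average did so by mean log2 fold changes between 0.17 and 0.30. NARS1 (asparaginyl), TARS1 (threonyl), KARS1 (lysyl) and EPRS1, a single chain that carries the glutamyl and prolyl activities, rose in MDA-MB-468 and SUM149PT and were not called in HCC38. LARS1, the leucyl enzyme, rose in MDA-MB-468 only, by 0.52, and had values of 0.18 in SUM149PT and -0.01 in HCC38. CARS1, the cysteinyl enzyme, showed the opposite distribution, with a rise of 0.47 in HCC38 and values of 0.05 and 0.13 in MDA-MB-468 and SUM149PT. The difference between lines passed the test for NARS1, TARS1, KARS1, LARS1 and CARS1. For EPRS1 it did not (edgeR adjusted p = 0.11), and its mean call did not hold without MDA-MB-468 LNA NS replicate 2 or HCC38 knock-down replicate 1.

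RARS1, the arginyl enzyme, was the cytosolic member with the largest fall. In HCC38 it was at 64.6 and 65.2 CPM after knock-down, against 146 and 106 CPM with LNA NS, and in MDA-MB-468 at 100 and 87.0 CPM after knock-down, against 169 and 117 CPM. In SUM149PT it was at 137 and 110 CPM after knock-down and 117 and 134 CPM with LNA NS. The groups were separate in MDA-MB-468 and HCC38 and overlapped in SUM149PT, and the LNA NS replicates lay far apart in both lines with a fall. Its log2 fold changes were -0.61, -0.03 and -0.95, with a mean of -0.53 (standard error 0.0973, edgeR adjusted p = 0.00028), and they differed between the lines (edgeR adjusted p = 0.0265). Without MDA-MB-468 LNA NS replicate 1 the call in that line was lost, at -0.33.

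Smaller falls were found for 3 other cytosolic members. AARS1, the alanyl enzyme, was at 312 and 282 CPM after knock-down and 362 and 380 CPM with LNA NS in HCC38, at 276 and 261 CPM after knock-down and 334 and 318 CPM with LNA NS in SUM149PT, and at 223 and 210 CPM after knock-down and 231 and 245 CPM with LNA NS in MDA-MB-468. Its groups were separate in each line, with a mean of -0.25 on the log2 scale (standard error 0.0488, edgeR adjusted p = 0.00055). The calls in SUM149PT (on LNA NS replicate 1 and on knock-down replicate 2) and in HCC38 (on knock-down replicate 2) each depended on single libraries.

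HARS1, the histidyl enzyme, was at 95.8 and 89.1 CPM after knock-down and 113 and 123 CPM with LNA NS in MDA-MB-468, the line with its clearest fall. It was at 123 and 120.0 CPM after knock-down and 128 and 127 CPM with LNA NS in SUM149PT, and at 128 and 127 CPM after knock-down and 148 and 146 CPM with LNA NS in HCC38. Its mean log2 fold change was -0.21 (standard error 0.0476, edgeR adjusted p = 0.0016), and the call in HCC38 (-0.21) was lost without any 1 of the 4 libraries of that line, and without SUM149PT LNA NS replicate 1. FARSA, the alpha subunit of the phenylalanyl enzyme, was at 245 and 251 CPM after knock-down and 272 and 274 CPM with LNA NS in MDA-MB-468. It was at 282 and 294 CPM after knock-down and 330 and 332 CPM with LNA NS in SUM149PT, and at 133 and 137 CPM after knock-down and 151 and 147 CPM with LNA NS in HCC38. The shifts were small but of 1 direction, with a mean of -0.16 (standard error 0.0437, edgeR adjusted p = 0.00579), a call that ended under upper quartile normalization (-0.05, edgeR adjusted p = 0.38), while in single lines FARSA was called in SUM149PT, a call lost without any 1 of its 4 libraries.

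IARS1, the isoleucyl enzyme, moved in opposite directions. It was at 265 and 255 CPM after knock-down and 210 and 182 CPM with LNA NS in MDA-MB-468, at 570 and 459 CPM after knock-down and 459 and 425 CPM with LNA NS in SUM149PT, and at 333 and 296 CPM after knock-down and 385 and 370 CPM with LNA NS in HCC38. The knock-down libraries were above LNA NS in MDA-MB-468, met it in SUM149PT and were below it in HCC38. IARS1 thus rose in MDA-MB-468 (0.41), was not called in SUM149PT (0.22) and fell in HCC38 (-0.26), a difference that passed the test (edgeR adjusted p = 0.0114). The rise was lost without MDA-MB-468 LNA NS replicate 2, and the fall without any 1 of HCC38 LNA NS replicates 1 and 2, HCC38 knock-down replicate 2, MDA-MB-468 knock-down replicates 1 and 2 and SUM149PT LNA NS replicate 1. FARSB, QARS1 (glutaminyl) and VARS1 (valyl) had mean log2 fold changes of -0.13, -0.09 and 0.09 and were not called. The mean of VARS1 passed with RLE (0.10) and upper quartile (0.20) normalization, with at least 10 counts in every library (0.12) and with DESeq2 (0.10). VARS1 alone of these passed in a single line, by 0.22 in HCC38, a call that ended when LNA NS replicate 1 or either knock-down library of that line was left out.

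In human cells, EPRS1, IARS1, LARS1, QARS1, MARS1, KARS1 and RARS1 are held in a multisynthetase complex by scaffold proteins. On average 4 of these 7 rose, 1 fell and 2 were not called, with a median log2 fold change of 0.17, beside 28.4% risen and 26.5% fallen of all genes. Of the 12 cytosolic members outside the complex, 7 rose, 3 fell and 2 were not called, with a median of 0.24. The order of the medians differed by line. In MDA-MB-468, 5 of the 7 rose and 1 fell (median 0.41), against 6 risen and 1 fallen of the 12 (0.28). In SUM149PT, 3 of the 7 rose and none fell (median 0.22), against 6 risen and 2 fallen of the 12 (0.19). In HCC38, 1 of the 7 rose and 2 fell (median -0.07), against 6 risen and 2 fallen of the 12 (0.19). Of all genes, 24.9%, 20% and 15.5% rose and 25.7%, 18.0% and 18.4% fell in these lines. Members inside and outside the complex were not tested against each other.

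RefSeq promoter windows (250 bases before and 50 after the annotated start, GRCh38.p14) were at hand for 30 of the 35 members, and the C/EBP-ATF response element was searched in them as TGATGNAAN on both strands. It was present in 6 of 16 cytosolic windows, 37.5%, and in 1 of 14 mitochondrial windows, 7.14%, beside 3.61% of all 35116 windows. The matches are printed because most lay in cytosolic members, each with 10 bases on either side and the match in capitals, on the strand of the gene and located in GRCh37 by an identical stretch. CARS1 lies at chr11:3078638-3078666 (minus strand), IARS1 at chr9:95055975-95056003 (minus), MARS1 at chr12:57881836-57881864 (plus), NARS1 at chr18:55289036-55289064 (minus), TARS1 at chr5:33441062-33441090 (plus), AARS1 at chr16:70323579-70323607 (minus) and YARS2, the mitochondrial member, at chr12:32909010-32909038 (minus).
CARS1: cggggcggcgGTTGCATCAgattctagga
IARS1: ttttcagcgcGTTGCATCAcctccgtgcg
MARS1: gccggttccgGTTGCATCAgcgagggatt
NARS1: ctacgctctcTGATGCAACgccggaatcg
TARS1: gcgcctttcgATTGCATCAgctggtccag
AARS1: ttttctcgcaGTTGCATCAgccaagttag
YARS2: tccacactgcTGATGGAAAaattaagttt
By the RefSeq start, the match of AARS1 begins 188 bases before it and that of YARS2 197 bases before it, while those of CARS1, IARS1, MARS1, NARS1 and TARS1 lie across the start or within 22 bases of it. The 2 annotations place the starts differently. From the outermost base of the GENCODE gene, the matches of AARS1, IARS1, CARS1, TARS1 and NARS1 begin 13, 143, 187, 270 and 391 bases inside the gene and that of MARS1 12618 bases inside it. The bases before the RefSeq start were searched first, with the element in 2 of 16 cytosolic and 1 of 14 mitochondrial windows, beside 3.13% of all windows, and the bases after it were added once that count was known. Of the 9 cytosolic members with a window that rose on average, 4 held a match (CARS1, MARS1, NARS1 and TARS1), as did AARS1, which fell, and IARS1, which was not called. WARS1, GARS1 and SARS1 held none in these windows. A match describes letters and shows no binding.

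The 4 largest mean changes of the 35 members were falls of mitochondrial synthetases. FARS2, the mitochondrial phenylalanyl enzyme, was at 2.14 and 2.17 CPM after knock-down and 25.0 and 24.1 CPM with LNA NS in MDA-MB-468. It was at 2.64 and 2.23 CPM after knock-down and 15.7 and 14.3 CPM with LNA NS in SUM149PT, and at 2.64 and 3.72 CPM after knock-down and 18.3 and 16.1 CPM with LNA NS in HCC38. All knock-down libraries were far below all LNA NS libraries, whichever the line. The log2 fold changes of FARS2 were -3.51, -2.61 and -2.45, with a mean of -2.86 (standard error 0.0987, edgeR adjusted p = 5.5e-12), a level 7.25-fold lower on average. The fall was unequal between the lines (edgeR adjusted p = 0.00882). It rests on 75 to 144 counts per knock-down library and 440 to 912 per LNA NS library.

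NARS2, the mitochondrial asparaginyl enzyme, was at 12.0 and 11.9 CPM after knock-down, against 37.1 and 33.6 CPM with LNA NS, in MDA-MB-468. In SUM149PT it was at 19.4 and 16 CPM after knock-down, against 35.3 and 32.2 CPM, and in HCC38 at 8.86 and 9.99 CPM after knock-down, against 24.4 and 22.2 CPM. The treatments were well separated in each line, and NARS2 had a mean fold change of -1.27 on the log2 scale (standard error 0.0728, edgeR adjusted p = 1e-09), with -1.56, -0.93 and -1.31 in the lines.

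LARS2, the mitochondrial leucyl enzyme, was at 11.6 and 9.91 CPM after knock-down, against 31.3 and 36.9 CPM with LNA NS, in MDA-MB-468. The corresponding levels were 30.1 and 25.1 CPM after knock-down, against 53.1 and 45.0 CPM, in SUM149PT, and 27.7 and 23.7 CPM after knock-down, against 31.0 and 35.9 CPM, in HCC38. The gap between the treatments was wide in MDA-MB-468 and narrow in HCC38. LARS2 had the widest range of all members between lines, with log2 fold changes of -1.66, -0.83 and -0.38 (edgeR adjusted p = 0.00114 for the difference) and a mean of -0.96 (standard error 0.081, edgeR adjusted p = 8.2e-08). Leaving out replicate 2 of either treatment ended the HCC38 call, at -0.27 in both cases, as it ended under upper quartile normalization.

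WARS2, the mitochondrial tryptophanyl enzyme, was at 7.06 and 4.68 CPM after knock-down and 16.9 and 13.1 CPM with LNA NS in MDA-MB-468. In SUM149PT it was at 15.5 and 11.1 CPM after knock-down and 20.8 and 20.9 CPM with LNA NS, and in HCC38 at 3.62 and 3.90 CPM after knock-down and 6.84 and 7.17 CPM with LNA NS. The knock-down replicates spread widely in MDA-MB-468 and SUM149PT but stayed below LNA NS. Its mean log2 fold change was -0.96 (standard error 0.115, edgeR adjusted p = 3.5e-06), with -1.35, -0.64 and -0.90 in the lines, and the SUM149PT call was lost without knock-down replicate 2, at -0.42.

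CARS2, the mitochondrial cysteinyl enzyme, was the fifth member that fell in every line, by -0.91, -0.52 and -0.36 (mean -0.60, edgeR adjusted p = 7.6e-08). These 5 (FARS2, NARS2, LARS2, WARS2 and CARS2) are 31.2% of the mitochondrial class, beside 8.74% of all genes tested that fell in every line, and no mitochondrial member rose in every line. Mean falls between -0.21 and -0.48 passed for SARS2 (seryl), IARS2 (isoleucyl), TARS2 (threonyl) and EARS2 (glutamyl). Under upper quartile normalization the mean calls of TARS2 (-0.11, edgeR adjusted p = 0.15) and EARS2 (-0.10, edgeR adjusted p = 0.13) ended. SARS2 had only 84 to 201 counts per library, and its calls in MDA-MB-468 (-0.53) and SUM149PT (-0.54) were lost without single libraries. IARS2, the most abundant of the class, fell in HCC38 (-0.57) and was not called in the other lines (-0.19 and -0.17). TARS2 fell in HCC38 (-0.39) and MDA-MB-468 (-0.25) and was at -0.02 in SUM149PT. EARS2 fell in MDA-MB-468 (-0.42) and SUM149PT (-0.29) but had a value of 0.07 in HCC38 (edgeR adjusted p = 0.0363 for the difference between lines).

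VARS2 and YARS2 were the mitochondrial members that rose on average. VARS2, the valyl enzyme, was at 62.8 and 62.1 CPM after knock-down and 42.8 and 46.9 CPM with LNA NS in HCC38, at 156 and 167 CPM after knock-down and 131 and 131 CPM with LNA NS in SUM149PT, and at 123 and 110.0 CPM after knock-down and 115 and 125 CPM with LNA NS in MDA-MB-468. It was higher after knock-down in HCC38 and SUM149PT and overlapped in MDA-MB-468, with a mean of 0.24 on the log2 scale (standard error 0.0527, edgeR adjusted p = 0.0011). The SUM149PT call was lost without knock-down replicate 2. YARS2, the tyrosyl enzyme, was at 26.9 and 29.4 CPM after knock-down and 22.6 and 21.3 CPM with LNA NS in MDA-MB-468, at 63.6 and 59.0 CPM after knock-down and 48.3 and 53.6 CPM with LNA NS in SUM149PT, and at 41.2 and 45.4 CPM after knock-down and 45.8 and 40.3 CPM with LNA NS in HCC38. Here the overlap was in HCC38, and the mean was 0.21 (standard error 0.0617, edgeR adjusted p = 0.00968). The calls of YARS2 in MDA-MB-468 (without LNA NS or knock-down replicate 2) and SUM149PT (without LNA NS or knock-down replicate 1) depended on single libraries.

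AARS2, the mitochondrial alanyl enzyme, fell in MDA-MB-468 (-0.29) and rose in SUM149PT (0.35) and HCC38 (0.31), which differed (edgeR adjusted p = 0.0114), and it was not called on average. Each of its 3 line calls ended without 1 of 2 libraries of that line, namely replicate 2 of either treatment in MDA-MB-468 and SUM149PT, and replicate 1 of either treatment in HCC38. HARS2 (histidyl), MARS2 (methionyl), PARS2 (prolyl) and RARS2 (arginyl) were not called in any line. HARS2 overlaps HARS1 head to head on chromosome 5, and reads from the shared stretch cannot be assigned without strand.

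For 17 pairings of a cytosolic and a mitochondrial gene of the same amino acid, the 2 enzymes can be set side by side. FARS2 is paired with both FARSA and FARSB, and EPRS1 with both EARS2 and PARS2, so the pairings are not all separate. The cytosolic mean log2 fold change was the higher in 13 of the 17, and in 15, 12 and 12 of them in MDA-MB-468, SUM149PT and HCC38. The median difference, cytosolic minus mitochondrial, was 0.48 on average and 0.71, 0.53 and 0.30 in the lines. Tryptophan and asparagine gave the plainest cases with called changes of opposite direction: WARS1 at 0.69 and WARS2 at -0.96, NARS1 at 0.30 and NARS2 at -1.27. Leucine (LARS1 at 0.23, LARS2 at -0.96), cysteine (CARS1 at 0.22, CARS2 at -0.60), serine (SARS1 at 0.35, SARS2 at -0.48), threonine (TARS1 at 0.26, TARS2 at -0.22) and glutamate (EPRS1 at 0.17, EARS2 at -0.21) had the same arrangement. For phenylalanine, the cytosolic subunits FARSA and FARSB had -0.16 and -0.13 and FARS2 had -2.86. The order was turned for alanine, histidine, arginine and valine.

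**Figure D3:**
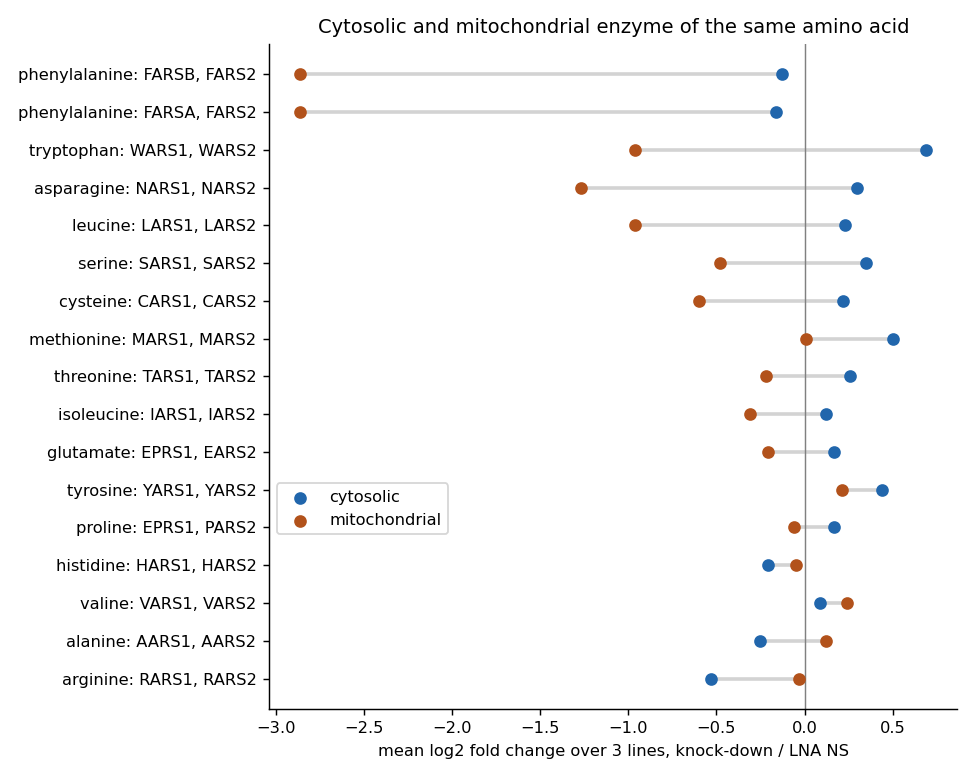
Mean log2 fold change over the 3 lines (knock-down over LNA NS, horizontal axis) of the cytosolic (blue) and mitochondrial (brown) gene for the same amino acid, joined by a line and ordered by their difference. The cytosolic point lies to the right in 13 of 17 pairings, with the widest gaps for phenylalanine, tryptophan, asparagine and leucine.

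Gene span, the distance from first to last annotated base, moved with the mitochondrial falls. The 4 members that span 100 kb or more, FARS2 (568149 bases, chromosome 6 from 5261277 to 5829425 in GRCh37), LARS2 (166166 bases), NARS2 (139574 bases) and WARS2 (109439 bases), are the 4 largest falls, and all are mitochondrial. The cytosolic members span 9199 to 89194 bases. Among all genes tested, those of 100 kb or more had a median log2 fold change of -0.31 and 48.7% of them fell. The values were 0.04 and 29.5% for genes of 20 to 100 kb, and 0.14 and 17.4% for genes under 20 kb. Spearman's rho of span and mean log2 fold change was -0.74 over the 16 mitochondrial and 0.26 over the 19 cytosolic members, and -0.23 over 20686 genes with a span. These correlations run across genes measured in the same libraries and are descriptive. Of the 12 mitochondrial members under 100 kb, 2 rose, 5 fell and 5 were not called, with a median of -0.06, a split chosen after the values were seen. The part of gene span in the difference between the classes was not tested.

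**Figure D4:**
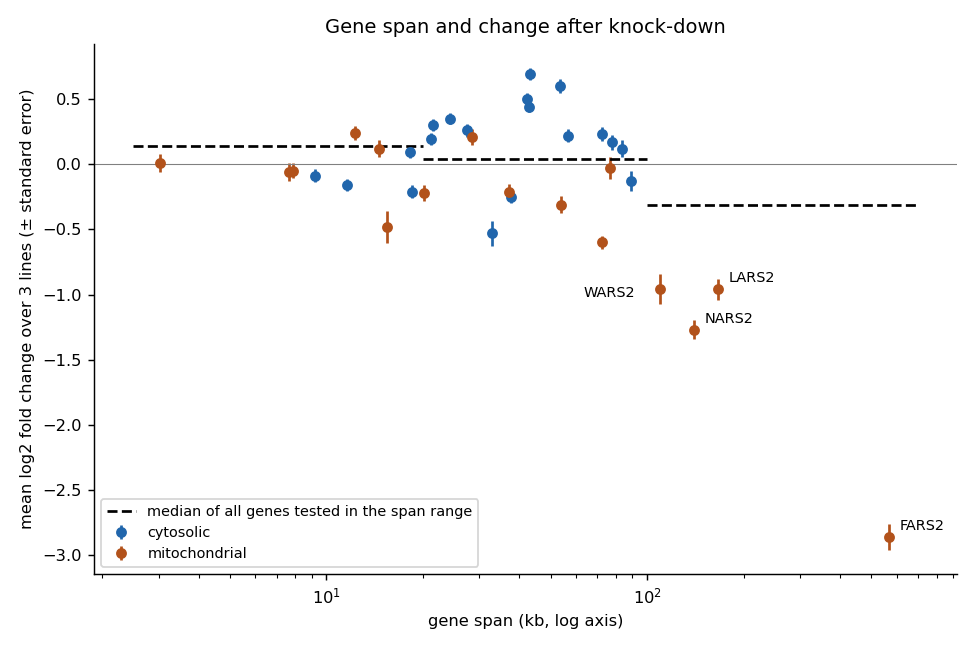
Mean log2 fold change over the 3 lines (vertical axis, bars are standard errors) against gene span in kb on a log axis for the 19 cytosolic (blue) and 16 mitochondrial (brown) members; dashed lines are the medians of all genes tested under 20 kb, from 20 to 100 kb and from 100 kb. FARS2, NARS2, LARS2 and WARS2 lie beyond 100 kb and below the median of -0.31 for genes of that span.

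Genes that work beside the synthetases were counted in the same way. Of 13 companions in the cytosol (scaffold proteins, tRNA handling and elongation factors), 4 rose, 2 fell and 7 were not called on average, with a median log2 fold change of 0.06, beside 28.4% risen and 26.5% fallen of all genes. Among those not called, EEF1G had only 4 to 23 counts per group, too few to measure a change. By line, the counts were 6 risen and 2 fallen in MDA-MB-468 (median 0.25), 4 and 1 in SUM149PT (0.19) and 1 and 2 in HCC38 (-0.14). Of all genes tested, 24.9% rose and 25.7% fell in MDA-MB-468, 20% and 18.0% in SUM149PT, and 15.5% and 18.4% in HCC38. XPOT, the export receptor of tRNA, was at 192 and 195 CPM after knock-down and 126 and 110.0 CPM with LNA NS in MDA-MB-468, but at 156 and 129 CPM after knock-down and 176 and 162 CPM with LNA NS in HCC38, and rose by 0.34 on average. EEF2, the elongation factor that moves the ribosome along, rose by 0.31. DTD1, which removes D-amino acids from tRNAs, fell by -1.14, from a gene that spans 178703 bases.

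Of 17 genes of mitochondrial tRNA charging and translation, 3 rose, 6 fell and 8 were not called on average, with a median of -0.05, again beside 28.4% and 26.5% of all genes. In MDA-MB-468, 5 rose and 5 fell (median 0.03), in SUM149PT 3 rose and 2 fell (-0.00), and in HCC38 none rose and 8 fell (-0.27). The shares of all genes risen and fallen were 24.9% and 25.7% in MDA-MB-468, 20% and 18.0% in SUM149PT, and 15.5% and 18.4% in HCC38. TUFM, the elongation factor that brings charged tRNA to the mitochondrial ribosome, was at 210.0 and 202 CPM after knock-down and 305 and 308 CPM with LNA NS in MDA-MB-468, and fell by -0.46 on average. GFM1, the mitochondrial translocation factor, fell by -0.61, and MTRF1L, a mitochondrial release factor, rose by 0.68.

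Most genes of the amino acid response, of which several cytosolic synthetases are part, rose. Of 25 genes listed for it, synthetases left out, 19 rose and 6 fell on average, with a median log2 fold change of 0.59, where 28.4% of all genes rose and 26.5% fell. In MDA-MB-468, SUM149PT and HCC38, 18, 15 and 17 rose and 5, 6 and 4 fell, and the medians were 0.72, 0.23 and 0.30. In the same order, 24.9%, 20% and 15.5% of all genes rose and 25.7%, 18.0% and 18.4% fell. ASNS, which makes asparagine, was at 155 and 187 CPM after knock-down and 45.0 and 39.1 CPM with LNA NS in MDA-MB-468, and rose by 2.02, 0.96 and 1.38 in the 3 lines. CHAC1, which degrades glutathione, rose by 1.94 on average, the transcription factor ATF3 by 1.87 and ATF4 mRNA by 0.41. The 6 that fell, by -0.18 to -0.94 on average, were PHGDH and PSPH of serine synthesis, PYCR1 of proline synthesis, the arginine and lysine transporter SLC7A1, the transcription factor CEBPB and DDIT4, an inhibitor of mTOR.

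**Figure D5:**
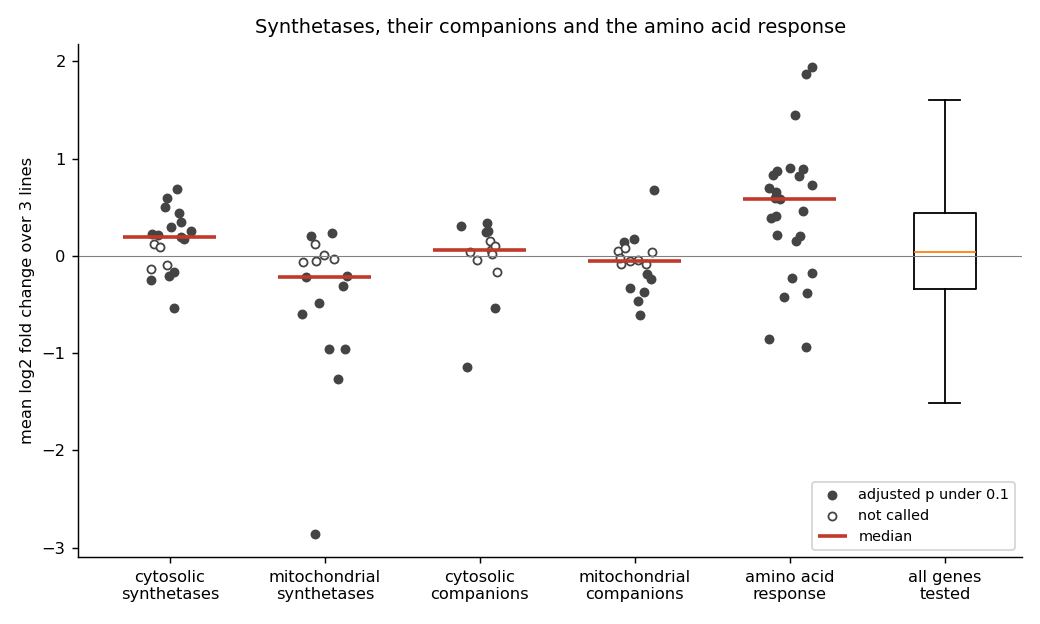
Mean log2 fold change over the 3 lines (vertical axis) of single genes in 5 groups, with filled points for an adjusted p under 0.1 and red bars for medians, beside a box of all 21325 genes tested (median, quartiles and whiskers to 1.5 times the interquartile range). The medians are 0.19 for cytosolic and -0.21 for mitochondrial synthetases, 0.06 and -0.05 for their companions, and 0.59 for the amino acid response.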

How the data were processed

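RNA from 3 cell lines was measured in 12 libraries. The authors deposited raw counts, whole numbers for each Ensembl gene. The submitters' notes list TopHat2 2.0.13 and HTSeq 0.6.0, the methods name STAR, and both give GRCh37, so the aligner of these counts is not settled. No source used here gives whether HTSeq counted by strand. Each table ends with 5 lines that name no gene and hold 40.8% to 53.7% of its counts, which entered neither library sizes nor tests. The methods state in general that experiments were repeated, but not whether replicate libraries were grown apart, so p-values measure the spread between these libraries, which may be technical.

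Genes were filtered with filterByExpr (minimum count 10, minimum total 15), normalized by TMM and fitted with edgeR 4.0.16 (limma 3.58.1, R 4.3.3), as quasi-likelihood means of 6 groups with 6 residual degrees of freedom. Contrasts were knock-down against LNA NS per line, their mean, and F tests of their differences and of the LNA NS levels. Adjusted p-values cover all 21325 genes. DESeq2 1.42.0, the tool the methods name, was an alternative, besides other normalizations, filters, a replicate block, fits per line and leaving out each library. Positions, spans and the length of the canonical transcript come from GENCODE models lifted to GRCh37, which matched 55665 of 63677 identifiers, and promoter sequences from RefSeq. The code of the tests was run on simulated data with the same spread for every gene, which does not give error rates for the real data. Tables and figures were made with Python 3.11.15, pandas 2.3.3 and matplotlib 3.10.9.

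Values per library are given for up to 4 risen and 4 fallen members of each class with the largest mean changes, and up to 6 with the widest range between lines among those whose difference passed. Companion genes are the 3 of each list with the smallest p, and ATF4, DDIT3 and the 6 that fell were named after their values were seen. Members and lists were chosen with earlier results of these data known.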

Additional observations from a re-analysis of the deposited data

Results flagged for a closer look

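The response to knock-down differed between the 3 lines for 18 of the 35 synthetases by edgeR's F test of the difference (adjusted p under 0.1), 11 of the 19 cytosolic and 7 of the 16 mitochondrial members, beside 32.4% of all genes tested. Among cytosolic members, the adjusted p of this edgeR test was 0.0019 for WARS1, with its smallest rise in SUM149PT, and 0.00379 for GARS1, 0.0306 for MARS1 and 0.0104 for YARS1, with their largest rise in MDA-MB-468. TARS1 (0.00616), KARS1 (0.014), LARS1 (0.0236) and NARS1 (0.0976), again adjusted p from edgeR, had their largest log2 fold change in MDA-MB-468 and their smallest in HCC38. CARS1 (adjusted p = 0.035, edgeR) rose in HCC38 alone, RARS1 (adjusted p = 0.0265, edgeR) fell in MDA-MB-468 and HCC38 and had a log2 fold change of -0.03 in SUM149PT, and IARS1 (adjusted p = 0.0114, edgeR) rose in MDA-MB-468 and fell in HCC38.

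Among mitochondrial members, LARS2 (adjusted p = 0.00114), FARS2 (0.00882), CARS2 (0.0105) and NARS2 (0.0386), by the same edgeR test, fell in every line and farthest in MDA-MB-468. EARS2 (adjusted p = 0.0363, edgeR) fell in MDA-MB-468 and SUM149PT. VARS2 (adjusted p = 0.0216, edgeR) rose in SUM149PT and HCC38. AARS2 (adjusted p = 0.0114, edgeR) fell in MDA-MB-468 and rose in SUM149PT and HCC38.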

How the results depend on the processing

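Upper quartile normalization moved the median of all genes by 0.137, 0.061 and 0.126 (log2) in MDA-MB-468, SUM149PT and HCC38 and by 0.108 on average. With it the median of the cytosolic members was 0.54 in MDA-MB-468, 0.06 in HCC38 (turned from -0.06) and 0.30 on average, that of the mitochondrial members -0.15 in HCC38, 2 mitochondrial members rose in MDA-MB-468, and 1 cytosolic member fell in SUM149PT and 2 in HCC38. The mean log2 fold changes of QARS1 (0.01), HARS2 (0.05), PARS2 (0.05) and RARS2 (0.08), not called, turned positive. It ended the mean calls of FARSA, TARS2 and EARS2, and in single lines those of HARS1 and IARS1 in HCC38, FARSA in SUM149PT, AARS2 and TARS2 in MDA-MB-468, LARS2 in HCC38 and SARS2 in MDA-MB-468 and SUM149PT, while AARS2 (0.23), IARS1 (0.23) and VARS1 (0.20) passed on average. The cytosolic median in MDA-MB-468 was 0.42 with RLE normalization, with DESeq2 and with each line fitted alone, 0.39 without a filter and 0.44 with at least 10 counts in every library. The mitochondrial median in HCC38 was -0.25 with RLE and DESeq2 and -0.23 with 10 counts in every library. Cytosolic members fallen in SUM149PT numbered 1 without a filter, with the replicate block and at an adjusted p under 0.05, and those fallen in HCC38 numbered 2 with RLE, with 10 counts in every library and at an adjusted p under 0.05. One mitochondrial member, in place of 2, rose in HCC38 without a filter and with the replicate block. MARS2 was at -0.00 without a filter and RARS2 at 0.01 with 10 counts in every library. Of the 12 mitochondrial members under 100 kb, an alternative added after seeing the data, 5 fell in MDA-MB-468, 3 in SUM149PT, 3 in HCC38 and 5 on average. Of all genes of any span, 25.7%, 18.0%, 18.4% and 26.5% fell in the same order.

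With 1 library left out, the cytosolic members risen numbered 9 to 11, 6 to 11 and 5 to 7 in MDA-MB-468, SUM149PT and HCC38 and 10 to 12 on average, and those fallen 1 to 2, 0 to 2, 1 to 5 and 4 to 6. The mitochondrial members risen numbered 0 to 1, 1 to 3, 1 to 2 and 2 to 3, and those fallen 6 to 9, 4 to 7, 6 to 7 and 9 in each fit. The cytosolic medians were 0.30 to 0.40, 0.16 to 0.27, -0.11 to 0.03 and 0.16 to 0.21, and the mitochondrial medians -0.41 to -0.17, -0.29 to -0.12, -0.32 to -0.24 and -0.25 to -0.18. The HCC38 cytosolic median turned positive when its LNA NS replicate 1 (0.01) or its knock-down replicate 2 (0.03) was left out. MARS2 ranged from -0.04 to 0.04 and RARS2 from -0.09 to 0.03 on average. FARSB (-0.19 to -0.06), QARS1 (-0.13 to -0.07), IARS1 (0.06 to 0.17) and AARS2 (0.08 to 0.16) each gained a mean call in some of these fits. The number of cytosolic members fallen was lowest without LNA NS replicate 1 in MDA-MB-468 (1), without LNA NS replicate 1 and without knock-down replicate 2 in SUM149PT (0 each), and without knock-down replicate 2 in HCC38 (1). It was 1 without either other SUM149PT library, and 2 in HCC38 without its LNA NS replicate 1 or without SUM149PT LNA NS replicate 1. SUM149PT knock-down replicate 2 set the lowest mitochondrial counts of that line (1 risen, 4 fallen), and no mitochondrial member rose in MDA-MB-468 without replicate 2 of either treatment, against 1 in HCC38 without LNA NS or knock-down replicate 1. Calls not described above that were lost are, in SUM149PT, those of KARS1 (LNA NS replicates 1 and 2, knock-down replicate 1), EPRS1 (LNA NS 2, knock-down 1), NARS1 (LNA NS 2), EARS2 (LNA NS 1, knock-down 2) and SARS2 (each library), and in MDA-MB-468 those of EPRS1 (LNA NS 2, knock-down 1), TARS2 (replicate 2 of either) and SARS2 (LNA NS 1 and 2, knock-down 2). The cause of these shifts was not tested.

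Same-numbered libraries did not vary together in every line (correlation of their deviations -0.022, 0.192 and -0.241), so the numbers were not taken as pairs. With the replicate block, 93 of 99 member results kept their direction and side of the threshold and 6 lost their call. With 2 libraries per group, changes near the threshold rest on few measurements, and SARS2 and FARS2 on the fewest counts.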
